A study of Mus musculus with 12 samples.

Results

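Windows of 500 kb whose Crick percentage of Okazaki fragments changed between naive ESCs and EpiLCs were selected in KMT2C/D mutant cells and then measured in the control line. OK-seq reads come from the short fragments of newly made lagging-strand DNA. The Crick percentage of a window is the share of its reads on the Crick strand. It is read here as the share of replication forks that move from left to right in genome coordinates. It also varied with base composition, as given further on. A window was a member if this percentage, in the summed reads of both mutant lines, differed by 6 points or more between the states. Of 4723 autosomal windows with at least 500 mutant reads in each state, 498 were members, 249 with a higher and 249 with a lower percentage in EpiLCs. Each sign therefore held 5.27% of the windows (5.27% higher and 5.27% lower). A further 193 of the 4916 whole windows had too few reads and were not tested. The members were thus chosen by the mutant values, which are given as a description, with no test. The control libraries took no part in the selection.

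The study compared naive mouse ESCs with EpiLCs, the formative cells they become, in 3 genotypes. Naive cells are kept with LIF and kinase inhibitors, and EpiLCs form after these are withdrawn. The control cells lacked KMT2C (KMT2C KO). The KMT2C/D dKO cells lacked KMT2C and KMT2D, and the KMT2C/D dCD cells carried catalytically inactive forms of both enzymes. Loss of KMT2C activity is thus shared by all groups, and no wild-type library was used here. KMT2D was removed from the dKO line by a 4-hydroxytamoxifen-induced Cre, while the dCD cells came from another ESC line of 129 background, so genotype and line of origin cannot be told apart in the dCD cells. Each of the 6 conditions had 2 biological replicates, 12 samples in all, but the deposited file of a condition holds their sum. Every value below is therefore that of 1 pooled library, or of the summed dKO and dCD libraries where the summed mutants are named, with no spread between replicates and no p-value. Intervals cover counting error only and compare libraries, not conditions. Naive libraries held 3655095 to 4409068 reads and EpiLC libraries 11407678 to 13601460, so depth and state cannot be told apart in the values as counted. An alternative with all libraries thinned to the smallest is given at the end. Genomic DNA reads do not measure marker RNA, and the labelled cell states were not checked against markers in these files.

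A replication fork copies one template continuously and the other in Okazaki fragments, so the strand that carries the fragments gives the direction of the fork. Where forks start, the Crick percentage rises from left to right, since forks to the left of an origin run leftwards and those to its right run rightwards. Where forks meet, it falls. KMT2C and KMT2D deposit H3K4me1, a histone mark of enhancers, and the passage from naive to formative pluripotency replaces a large part of the active enhancers. Mammalian origins have no fixed sequence and are often found in zones next to active promoters, many of them rich in CpG.

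Pairs of neighbouring windows that changed in opposite directions enclose or adjoin 4 genes of the naive and formative lists. The promoters of 3 of them are shown because fork values are given further on by distance from the starts of these genes. They are Tet2 (chr3:133544341-133544640, minus strand), Fgf5 (chr5:98253934-98254233, plus strand) and Zfp42 (chr8:43306960-43307259, minus strand). Sequences are those of RefSeq in build GRCm38.p6, from 250 bases before to 50 bases after the RefSeq start, which can differ from the GENCODE start used for distances, written 5′ to 3′ in the direction of the gene. Capitals mark CG dinucleotides, which read the same on both strands. They numbered 57 in Tet2, 29 in Fgf5 and 11 in Zfp42. The median was 7 over the 32851 promoters of the same length in the table, and 94.6% of these held at least 1. The count in Tet2 was reached or exceeded by few promoters, as 99.9% had as many or fewer, against 88.3% for Fgf5 and 60.4% for Zfp42.
Tet2: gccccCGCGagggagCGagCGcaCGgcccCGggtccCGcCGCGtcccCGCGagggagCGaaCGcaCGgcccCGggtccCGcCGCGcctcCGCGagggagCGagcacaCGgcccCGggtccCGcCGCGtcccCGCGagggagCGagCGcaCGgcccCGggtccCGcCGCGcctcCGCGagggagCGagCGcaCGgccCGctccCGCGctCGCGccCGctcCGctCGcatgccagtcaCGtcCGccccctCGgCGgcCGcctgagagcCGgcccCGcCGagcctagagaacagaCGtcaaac
Fgf5: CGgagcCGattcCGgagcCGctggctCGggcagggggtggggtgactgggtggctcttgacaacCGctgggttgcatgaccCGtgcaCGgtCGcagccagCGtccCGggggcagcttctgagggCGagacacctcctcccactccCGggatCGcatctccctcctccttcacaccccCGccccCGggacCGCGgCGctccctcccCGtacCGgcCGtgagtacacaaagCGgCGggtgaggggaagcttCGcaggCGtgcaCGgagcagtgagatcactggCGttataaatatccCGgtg
Zfp42: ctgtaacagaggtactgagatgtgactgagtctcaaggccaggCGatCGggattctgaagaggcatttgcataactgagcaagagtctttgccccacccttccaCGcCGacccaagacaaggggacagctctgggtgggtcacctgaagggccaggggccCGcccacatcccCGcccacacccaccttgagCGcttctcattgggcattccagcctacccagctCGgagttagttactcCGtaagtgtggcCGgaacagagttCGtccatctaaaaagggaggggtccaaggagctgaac

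In the control line, 453 of the 498 members (91.0%) changed in the direction seen in the mutants, against 70.4% of all tested windows. The count was 223 of 249 among windows with a higher percentage in EpiLCs and 230 of 249 among those with a lower one. The median control change in the mutant direction was 4.18 points, with a median of 4.16 in the former and -4.28 in the latter. The mutant values that chose the windows had a median of 7.16 points. The dKO line alone gave a median of 5.94 points and the dCD line 9.03 points, and 200 members passed 6 points in both lines. All 3 lines moved the same way in 451 members (90.6%), against 53.5% of all windows, but the dKO and dCD lines had chosen them.

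A control change of 6 points or more in the mutant direction was reached by 153 members (30.7%). These were 82 higher in EpiLCs, where the share over all windows was 5.76%, and 71 lower, where it was 4.7%. None passed 6 points the other way. The 95% interval of the control change excluded 0 in the mutant direction in 273 members (54.8%), of which 135 rose and 138 fell. Over all windows, 14.7% had an interval above 0 and 14.2% an interval below 0. The median interval reached 3.84 points to either side, so a change near the control median could not be told from 0 in many single windows. In 13 members the naive control library held fewer than 500 reads, with 291 as the lowest.

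The interval excluded 0 against the mutant direction in 2 members, both on chr11. The window at chr11:34500001-35000000, which overlaps Dock2, a Rac activator of lymphocytes, had 47.5% in naive and 43.0% in EpiLC control cells, but 41.4% and 47.9% in dKO cells and 38.1% and 43.9% in dCD cells. The window at chr11:47000001-47500000, inside the sarcoglycan gene Sgcd, went from 44.6% to 49.1% in control cells, from 55.6% to 49.5% in dKO cells and from 55.7% to 48.4% in dCD cells. The naive control was higher than both naive mutants in the former window and lower in the latter, and the control change was -4.49 and 4.57 points.

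**Figure D1:**
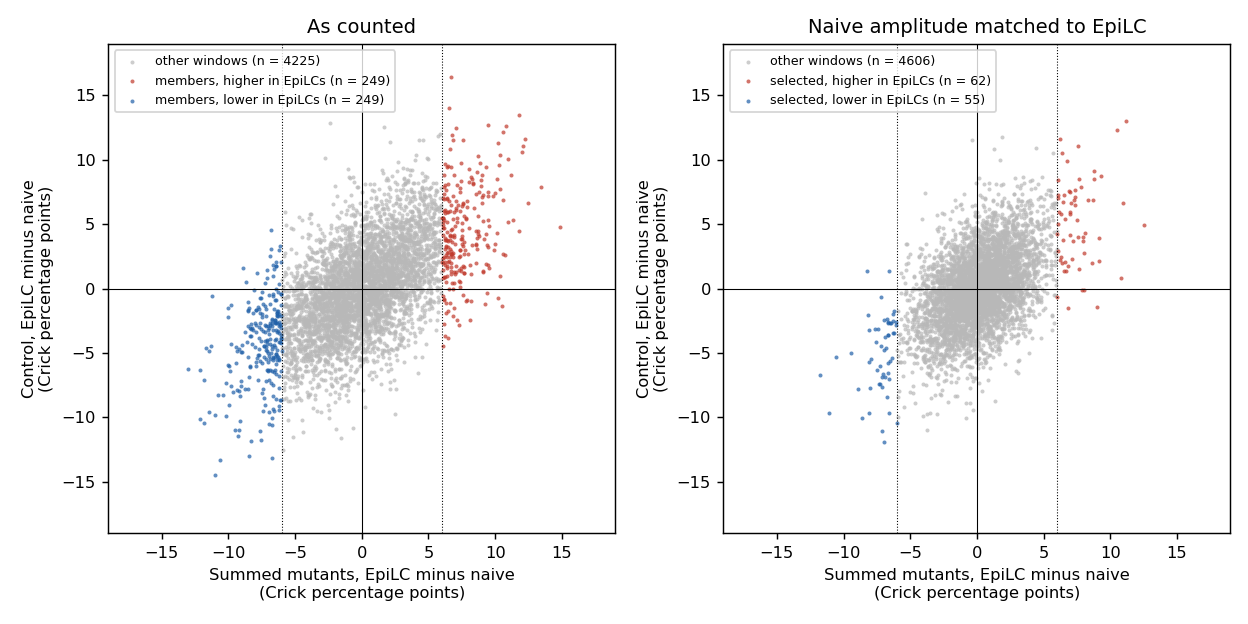
Change in Crick percentage from naive ESCs to EpiLCs in the control line (vertical) against that in the summed mutants (horizontal), in percentage points, one point per 500 kb window. The left panel shows the values as counted, with 453 of 498 members in the quadrants where both changes have the same sign. The right panel shows them after the naive values were scaled to the spread of the EpiLC values, with 110 of 117 selected windows in those quadrants. Dotted lines mark 6 points.

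Control windows followed the mutants more closely as the mutant change grew. Of the windows whose mutant change was under 2 points, 56.4% had the same sign in the control, with a median of 0.466 points. From 4 to 6 points, just short of membership, the share was 85.3% and the median 2.98 points. Among members it was 89.3% from 6 to 8 points, 94.3% from 8 to 10 and 95.7% beyond, with medians of 3.69, 4.83 and 7.54 points. The values thus ran on across the threshold without a gap. The 3 members nearest to it had mutant changes of 6.005, 6.008 and -6.013 points and control changes of 2.08, 5.50 and -4.87. The 3 windows just outside had 5.987, 5.991 and -5.998 points in the mutants and 2.33, 2.75 and 0.678 in the control.

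Most members kept the prevailing direction of their forks. In members that were higher in EpiLCs, the median Crick percentage of the summed mutants went from 34.2% to 41.9%, and that of the control from 39.0% to 43.6%. Where it was lower, the medians went from 63.9% to 56.3% in the mutants and from 59.1% to 54.9% in the control. Both groups thus became less one-sided. The percentage came nearer to 50%, at which forks of both directions are equally frequent, in 463 members (93.0%) in the mutants, in 415 (83.3%) in the control and in 407 (81.7%) in all 3 lines. Over all windows the shares were 73.3% in the mutants, 66.2% in the control and 43.6% in all 3 lines. The mutant values chose the members, so that the control count alone is independent of the selection. Only 9 members moved away from 50% in the mutants without crossing it.

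The prevailing direction itself turned in 76 members (15.3%) in the summed mutants, in that naive and EpiLC values lay on different sides of 50%, which they did in 11.1% of all windows. Of these, 66 changed the same way in the control (86.8%) and 20 by 6 points or more (26.3%), against 68.8% and 10.3% of the 525 windows that turned in the mutants. Forks of 40 (52.6%) also crossed 50% in the control, a share near the 45.9% of those 525. Counted over all members, 67 (13.5%) crossed in the control, a share near the 14.5% of all windows. The label of windows with changing fork direction therefore fits a minority, and the members are described here as windows whose Crick percentage changed with state.

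**Figure D2:**
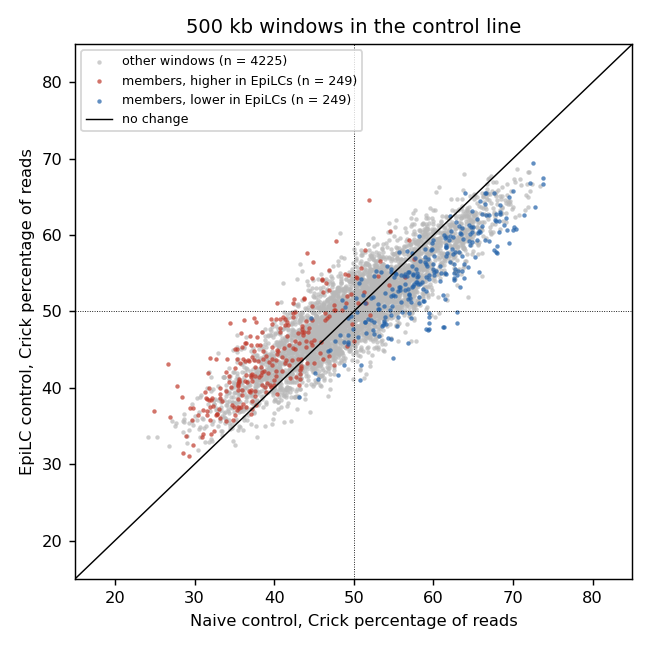
Crick percentage of the control line in EpiLCs against naive ESCs, one point per 500 kb window, with the line of no change and dotted lines at 50%. Members with higher values in EpiLCs (median 39.0% to 43.6%) sit mostly in the lower left and above the line of no change, and those with lower values (59.1% to 54.9%) mostly in the upper right and below it.

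The same narrowing was seen over the whole genome. The spread of Crick percentage over the tested windows beyond counting error, called the amplitude here, was 8.003 points in naive and 6.41 in EpiLC control cells. It was 8.98 and 7.23 points in dKO cells and 11.6 and 8.58 in dCD cells. The part of this narrowing in the change of single members was not tested. It was set aside by scaling each naive library to the amplitude of its EpiLC library, after which 117 windows changed by 6 points or more in the mutants, 62 higher and 55 lower in EpiLCs. Of these amplitude-matched windows, 95 were also members as counted.

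The amplitude-matched windows changed the same way in the control in 110 of 117 cases (94.0%), against 66.9% of all windows on this scale. The control change passed 6 points in the mutant direction in 47 (40.2%), where 4.36% of all windows did. Their median control change was 5.32 points, beside 7.06 in the mutants that chose them. The forks of 44 of them crossed 50% in the mutants and those of 40 in the control. Direction thus turned in a larger share of these windows than of the members as counted, 44 of 117 against 76 of 498. The scaling takes most from windows far from 50%, and no test of this difference was made.

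Selection in single lines was also tried. Each selection required 500 reads in both libraries of the line that chose. Of the 482 windows that passed 6 points in the control, 420 changed the same way in dKO cells (87.1%, against 67.0% of all windows tested) and 434 in dCD cells (90.0%, against 69.3%), with medians of 3.70 and 5.60 points. Windows chosen in dKO cells (376) changed the same way in 332 cases in the control (88.3%, against 67.0%) and in 344 in dCD cells (91.5%, against 71.3%), with medians of 4.22 and 6.16 points. Windows chosen in dCD cells numbered 985 and had medians of 3.31 points in the control and 3.40 in dKO cells. The change in the lines that did not choose was smaller than the threshold in every case but that of dCD cells at windows chosen in dKO cells.

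The members with the largest mutant change were examined singly, 6 of each sign at least 1 Mb apart. All 12 changed in the same direction in the control with an interval that excluded 0, all 12 were amplitude-matched members, and 10 came nearer to 50% in the control. The largest mutant change was at chr5:27000001-27500000, which lies wholly inside Dpp6, a gene for an auxiliary subunit of neuronal potassium channels. There the naive values were 50.9% in control, 40.4% in dKO and 37.9% in dCD cells, and the EpiLC values 55.7%, 52.7% and 55.1%. The naive mutants were low, and all 3 EpiLC libraries lay close together above 50%. The control change was 4.77 points (0.918 to 8.62).

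The window at chr7:132000001-132500000 holds Cpxm2 and Chst15, both on the minus strand. The annotated model of Fgfr2, an FGF receptor gene of the same strand, spans the whole window, so Fgfr2 starts outside it. The Crick percentage of the window rose from 36.8% to 43.5% in control, from 30.0% to 39.2% in dKO and from 25.4% to 41.0% in dCD cells. Leftward forks prevailed in all 6 libraries and less so in EpiLCs, by 6.64 points in the control (3.30 to 9.92). At chr16:50000001-50500000, which holds a part of Bbx, a gene for an HMG-box protein, the percentage was 48.0%, 48.1% and 54.5% in naive control, dKO and dCD cells. It was 41.7%, 39.5% and 38.2% in EpiLCs. Here naive forks were nearer to balance and EpiLC forks were mostly leftward, so the window moved away from 50% in the control, by -6.33 points (-10.1 to -2.57).

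Windows without protein-coding genes were among those with the largest change, and genes of other types were not counted. No protein-coding gene overlapped chr9:90500001-91000000, which went from 56.1% to 49.9% in control, from 64.2% to 51.9% in dKO and from 66.3% to 52.4% in dCD cells. All 3 EpiLC values were close to 50%. Nor did one overlap chr6:69500001-70000000, which went from 43.8% to 51.7% in control, from 42.2% to 50.6% in dKO and from 35.0% to 53.0% in dCD cells and crossed 50% in all lines. At chr15:38500001-39000000, with Atp6v1c1, Baalc and Azin1, the control fell from 56.9% to 52.3%, dKO cells from 65.8% to 53.3% and dCD cells from 64.5% to 53.8%. The control change there, -4.59 points (-8.80 to -0.324), was the smallest of the 12.

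Other members with large control changes, picked here after their values were seen, were not among these 12. At chr3:15500001-16000000, with the signal-regulatory protein genes Sirpb1b and Sirpb1c, the control went from 26.7% to 43.2%, dKO cells from 29.5% to 35.1% and dCD cells from 27.1% to 34.9%. The window at chr1:114000001-114500000, which no protein-coding gene overlaps, went from 62.9% to 48.4%, from 64.4% to 55.0% and from 70.0% to 57.2%. At chr15:66500001-67000000, with the thyroglobulin gene Tg and Ndrg1, it rose from 44.1% to 57.7%, from 44.1% to 51.5% and from 42.9% to 58.6%, and the prevailing direction turned in all 3 lines.

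Around the members the change was largest inside the window, and smaller changes, mostly of the opposite sign, were seen further out. In the control, the mean over windows higher in EpiLCs was 39.9% in naive cells and 44.3% in EpiLCs inside the window. In the adjacent 500 kb it was 49.1% and 49.1% on the left and 49.5% and 48.9% on the right. Windows lower in EpiLCs had means of 59.0% and 54.8%, with 50.4% and 51.2% on the left and 50.6% and 50.3% on the right. These flanking means join bins that changed in opposite directions. In the 100 kb bin 300 kb to the left of the centre, windows lower in EpiLCs went from 56.7% to 54.3%, while 700 kb to the left the mean went from 46.2% to 49.3% and 900 kb to the left from 45.9% to 48.0%. For windows higher in EpiLCs, the bin 700 kb to the right went from 52.9% to 51.0%. The amplitude-matched windows had means on opposite sides of 50%, 47.4% in naive and 53.1% in EpiLC control cells where the percentage rose, and 52.9% and 47.4% where it fell. Members formed 469 runs along the chromosomes, 440 of 1 window and 29 of 2 adjacent windows of the same sign, and none was longer. These counts were not compared with those of windows placed at random. The share of members among the tested windows ranged from 6.64% on chr4 to 13.7% on chr10.

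**Figure D3:**
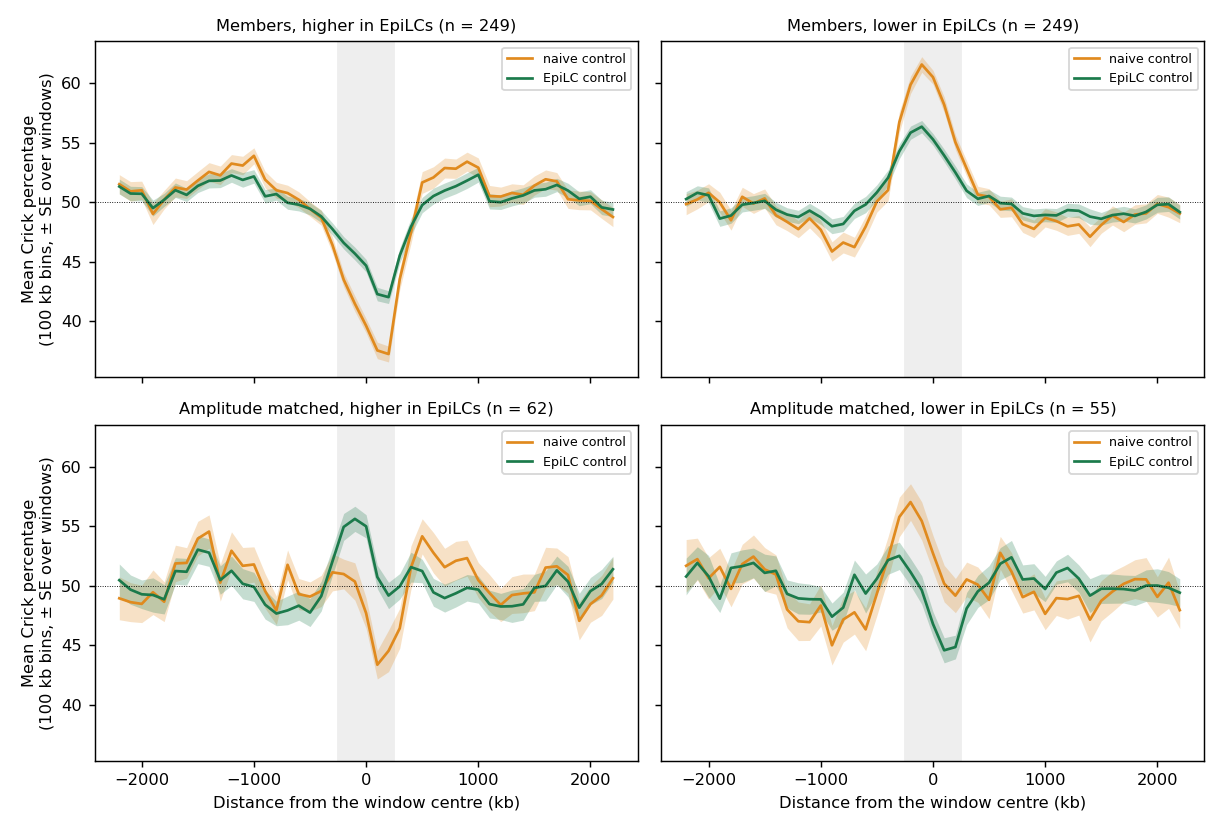
Mean Crick percentage of the control line in naive ESCs and EpiLCs in 100 kb bins by distance from the centre of the window, for members of each sign as counted (top) and after amplitude matching (bottom). Shading shows the SE over windows, which are not replicates, and the grey band is the window. Inside it the states part (39.9% against 44.3% at top left, 59.0% against 54.8% at top right) and outside it they lie closer together but still apart in places (46.2% against 49.3% at 700 kb to the left in members lower in EpiLCs).

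A pair of neighbouring windows that change in opposite directions bears on the forks that leave the interval between them. If the percentage falls on the left and rises on the right, the step between them grows, with a larger net share of outward forks in EpiLCs (a divergent pair). In the opposite case the step shrinks (a convergent pair). Among the amplitude-matched windows, 16 such pairs lay at most 1.5 Mb apart, 7 divergent and 9 convergent. The pairing was defined after the data were seen, and the window at chr1:82000001-82500000 belongs to a pair of each kind. In 15 of the 16 pairs both windows changed in the mutant direction in the control. Of the amplitude-matched windows, 94.0% did so singly on the matched scale, and no share over all pairs was computed. The control step changed with an interval that excluded 0 in all 7 divergent pairs and in 8 of the 9 convergent ones. Among all window pairs at this distance, 15% had an interval above 0 and 15.4% below 0. The exception, at chr2:62000001-62500000 and chr2:63000001-63500000, had a control step change of 2.34 points (-3.48 to 8.08) as counted and -1.10 after amplitude matching. Steps are given as counted, although the windows were chosen on the matched scale. On that scale all 16 control steps changed in the mutant direction.

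A divergent pair lay on both sides of Prdm8 and Fgf5. Fgf5 encodes a growth factor that marks formative cells, and Prdm8 a zinc-finger regulator that is on the formative list. In the control, the left window (chr5:97500001-98000000) fell from 54.9% to 43.9%, and the right window (chr5:98500001-99000000) rose from 53.3% to 56.6%. The interval of the right window's change, 3.27 points, included 0 (-0.524 to 7.08). The step from left to right therefore went from -1.56 to 12.7 points, a change of 14.2 points (8.65 to 19.8). It went from -1.72 to 8.42 points in dKO cells and from -6.36 to 20.3 points in dCD cells. There was no rise across the interval in naive cells of any line and a rise in EpiLCs of all 3. The window with both genes was no member, as its value in the summed mutants was 53.4% in naive cells and 51.8% in EpiLCs. In the control it went the other way, from 46.7% to 50.6%, by 3.87 points (0.012 to 7.71).

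At finer scale, a rise at Fgf5 was already present in naive cells. In the 100 kb bin centred 104 kb to the left of the start, the naive control value was 35.2%, and 58.0% in the bin centred 95.8 kb to the right. In EpiLCs they were 37.9% and 73.4%. In dKO cells the corresponding bins had 38.2% and 66.9% in naive cells and 34.8% and 68.3% in EpiLCs, and in dCD cells 31.2% and 76.2%, then 29.1% and 75.5%. The rise next to the gene was thus larger in EpiLCs in the control library, and differed little between the states in the mutants, whose change lay further out. Naive bins held 107 to 210 reads from 204 kb to the left to 196 kb to the right of the start, and these differences were not tested.

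The convergent pairs included both sides of Zfp42 (Rex1), a marker gene of naive pluripotency. The left window (chr8:42500001-43000000), in which no protein-coding gene starts, went from 37.5% to 49.1% in control, from 35.4% to 44.4% in dKO and from 31.9% to 47.5% in dCD cells. The right window (chr8:43500001-44000000) went from 61.5% to 51.6%, from 60.9% to 54.3% and from 64.7% to 50.7%. All naive libraries had leftward forks to the left of the gene and rightward forks to its right, and in EpiLCs the sides were nearer to even. The control step fell from 24.0 to 2.45 points, a change of -21.5 points (-28.3 to -14.5). It fell from 25.5 to 9.92 points in dKO cells and from 32.8 to 3.24 in dCD cells. Next to the start, the bins centred 57.0 kb to the left and 43.0 kb to the right had 35.4% and 70.1% in the naive control and 40.2% and 58.6% in the EpiLC control.

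Tet2, which encodes a 5-methylcytosine dioxygenase, starts inside the right window of another convergent pair. That window (chr3:133500001-134000000) fell from 63.0% to 54.8% in control, from 67.3% to 57.7% in dKO and from 68.6% to 56.6% in dCD cells. The adjacent left window (chr3:133000001-133500000) rose from 47.7% to 59.3%, from 49.9% to 56.8% and from 48.7% to 56.9%. The control step went from 15.3 to -4.47 points, a change of -19.7 points (-25.1 to -14.3). To the left of the gene, leftward and rightward forks were balanced in naive cells and rightward forks prevailed in EpiLCs. The dKO step went from 17.4 to 0.883 points and the dCD step from 19.9 to -0.256.

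**Figure D4:**
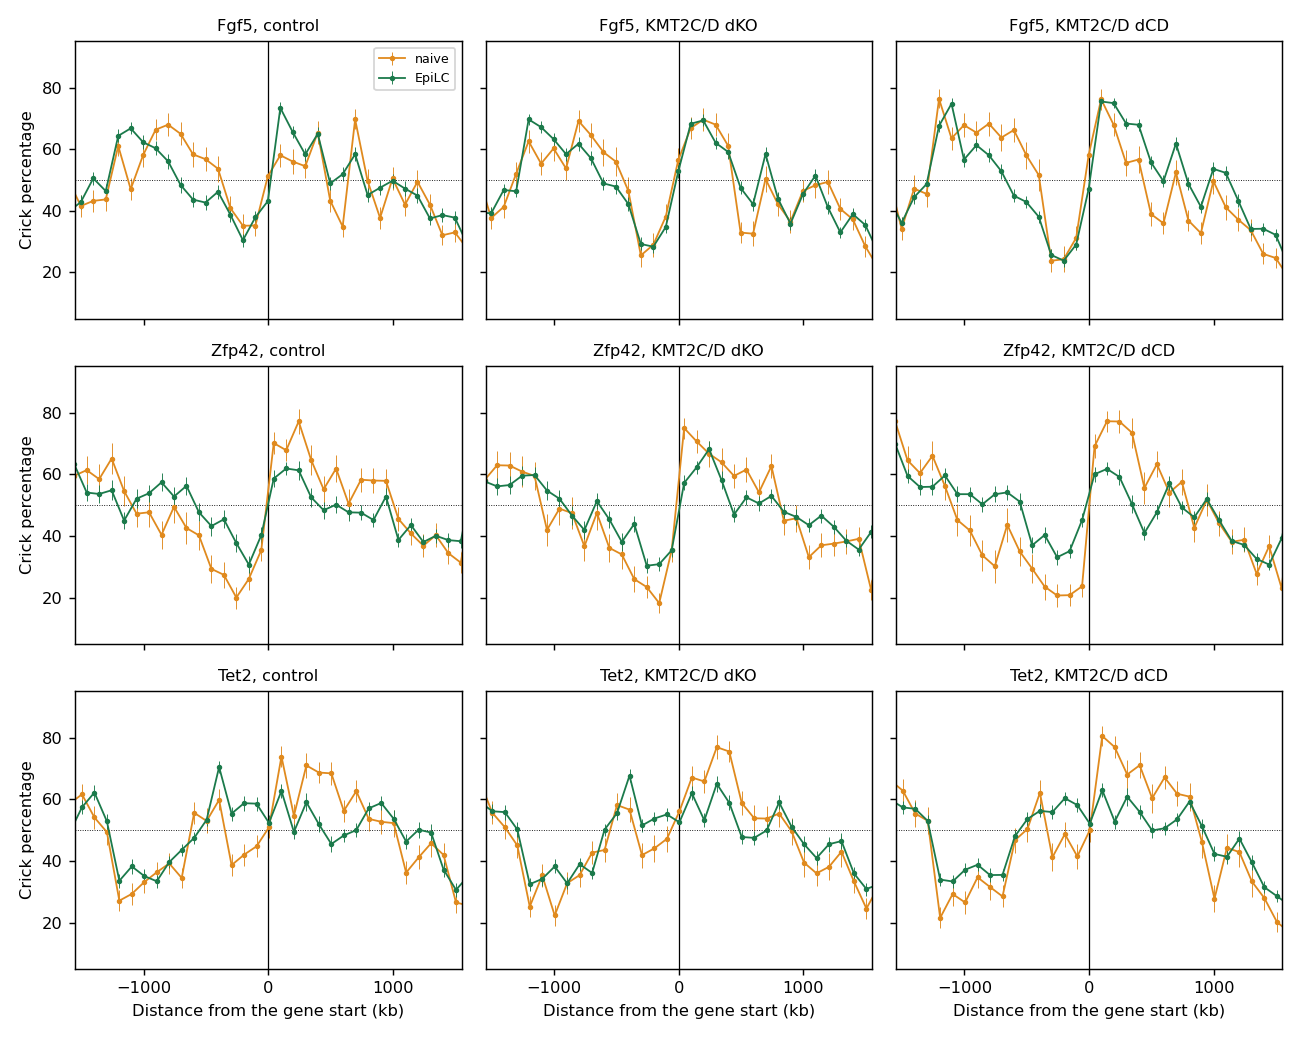
Crick percentage in 100 kb bins by distance from the starts of Fgf5, Zfp42 and Tet2, in genome order from left to right, in naive ESCs and EpiLCs of the 3 lines. Bars show the binomial SE of a bin, which covers counting error only. At Zfp42 all naive profiles climb steeply across the start and the EpiLC profiles less so, and at Fgf5 the EpiLC values lie below the naive ones from 804 to 404 kb to the left.

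Other pairs had steps as large. Gria2, an AMPA receptor gene, and Glrb, a glycine receptor gene, lie in chr3:80500001-81000000, and Pdgfc, a growth factor gene, in the adjacent chr3:81000001-81500000. In the control, the left window rose from 32.7% to 43.8% and the right one fell from 68.0% to 57.6%, so that the step fell from 35.3 to 13.8 points. It fell from 36.8 to 21.5 points in dKO cells and from 46.6 to 13.01 in dCD cells. On chr1, 3 amplitude-matched windows lay 1 Mb apart. Across Nyap2 and the insulin receptor substrate gene Irs1 (chr1:81000001-81500000 to chr1:82000001-82500000), the control step went from -10.6 to 8.02 points. Across Col4a3, Col4a4, Mff and Agfg1 to chr1:83000001-83500000 with Sphkap, it fell from 27.5 to 6.73 points. The middle window went from 40.4% to 51.0% and ended balanced.

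Some steps changed sign between the states, which happened in the control in 6 of the 16 pairs. The share of such turns over all window pairs at this distance was not computed. Across Ptprz1, Aass, Fezf1 and Cadps2 (chr6:22500001-23000000 to chr6:23500001-24000000), the control step went from -11.2 to 5.15 points, a change of 16.3 points (10.3 to 22.3). It went from -17.7 to 3.69 points in dKO cells, while in dCD cells it went from -15.0 to -0.564. Others kept their sign. Next to Sema3e, a semaphorin gene, the step between chr5:13500001-14000000 and chr5:14000001-14500000 grew from 10.7 to 29.1 points in control, from 12.1 to 22.5 in dKO and from 18.6 to 38.2 in dCD cells. The median control step change was 14.2 points in divergent and -15.1 in convergent pairs as counted, and 13.9 and -13.5 after amplitude matching.

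Of 20331 protein-coding genes that started in tested windows, 1453 (7.15%) started in members. The naive pluripotency list had 3 of 28 genes there (10.7%), the formative list 6 of 25 (24%), the germ layer list 2 of 25 (8%) and the list of replication origin and timing factors 1 of 28 (3.57%). No test of these shares was made. Fgf5 and Zfp42, whose neighbouring windows were members, are not counted among them.

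The 3 naive genes were Tet2, Prdm14 and Tbx3, all in windows that fell. Prdm14 encodes a repressor of differentiation and Tbx3 a T-box factor. The Prdm14 window (chr1:13000001-13500000) had 53.1% in naive and 50.3% in EpiLC control cells, a change of -2.84 points (-6.36 to 0.687). The Tbx3 window (chr5:119500001-120000000) had 55.8% and 52.8%, a change of -3.04 points (-6.45 to 0.395). The control intervals of both included 0.

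Of the 6 formative genes, Lin28b, Grhl2 and Utf1 were in windows that fell and Lef1, Dnmt3l and Sox4 in windows that rose. The window of Lin28b, an RNA-binding inhibitor of let-7 processing, went from 59.4% to 48.4% in control, from 55.7% to 53.1% in dKO and from 62.2% to 49.6% in dCD cells. Its control change was -11.0 points (-14.6 to -7.41). The window of Grhl2, a factor of epithelial genes, went from 62.6% to 54.1% in control, from 62.0% to 58.0% in dKO and from 69.7% to 58.6% in dCD cells, with a control change of -8.52 points (-11.9 to -5.07). Lef1, a Wnt effector, was in a window that rose by 3.96 points in the control (0.190 to 7.72). Control intervals included 0 for Utf1 (-2.06 points), Dnmt3l (0.462) and Sox4 (2.48).

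Among the remaining lists, Sox17, an endoderm factor, started in chr1:4000001-4500000. This window rose from 35.0% to 45.1% in control, from 31.7% to 41.9% in dKO and from 24.1% to 36.1% in dCD cells, by 10.04 points in the control (5.93 to 14.0). The Id2 window had a control change of -3.37 points (-6.77 to 0.117). Kmt2c itself, the gene lost in the control and dKO lines and altered in the dCD line, started in a member close to the threshold. Its window rose from 38.0% to 43.5% in control, from 38.3% to 43.6% in dKO and from 36.2% to 42.9% in dCD cells.

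Gene families are clustered, so they are given by windows as well as by starts. Beside them stand 7.15% of all gene starts and 498 of the 4723 tested windows, and no test was made. Members held 25 of 67 protocadherin gene starts (37.3%) in 2 of the 12 windows with such a gene, 24 of them in 1 window (chr18:37500001-38000000). These genes encode cadherin-like adhesion proteins of neurons. The window fell from 43.1% to 38.8% in control, from 44.4% to 36.6% in dKO and from 43.4% to 37.5% in dCD cells and moved away from 50% in all lines. Olfactory receptor genes had 50 of 1128 starts (4.43%) in members, in 5 of 114 windows, and 42 of these starts were in windows that rose. The window at chr2:87000001-87500000 alone held 19 and went from 34.4% to 48.4% in control, from 43.1% to 45.5% in dKO and from 36.2% to 47.6% in dCD cells. Zinc-finger genes named Zfp had 27 of 373 starts (7.24%) in members, in 18 of 198 windows, a share close to that of all genes. Vomeronasal receptor genes had 7 of 262 (2.67%), in 4 of 60 windows. The 39 Hox genes lie in 5 windows and the 67 histone genes of the Hist clusters in 6, none of them a member.

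Members were not gene deserts, but few were gene-dense. The median was 2 protein-coding gene starts per window among members and among all windows. No such gene started in 24.1% of members and 24.4% of all windows. Members held 2.92 ± 3.59 gene starts (mean ± SD over windows, n = 498) and all windows 4.30 ± 5.59. There were 10 or more starts in 25 members (5.02%), against 13.2% of all windows. A gene of 500 kb or more overlapped 87 members (17.5%), against 12.2% of all windows. By start, 40 of 217 such genes (18.4%) lay in members, against 7.15% of all protein-coding genes. Median GC content was 41.2% in members and 41.7% in all windows. The rule did not use these features, yet windows along a chromosome are not independent, and the differences were not tested.

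Base composition and gene strand moved with the sign of the change. The T minus A content of the reference strand had a median of -1.51% of bases in members higher in EpiLCs and 1.40% in those lower, against 0.0530% in all windows. Genes on the plus strand made up 41.4% of the gene bases in the former and 60.8% in the latter, against 51.3% in all windows. Gene bases that ran along the prevailing forks of the naive mutants were 57.4% in members and 55.4% in all windows. They were 47.8% in the amplitude-matched windows. The part of the naive level in the strand split was not tested. T minus A content also moved with the naive level, with a Pearson correlation of 0.733 with the naive control Crick percentage across 4723 windows that share libraries and neighbours. In the amplitude-matched windows the medians were 0.0968% where the percentage rose and -0.0304% where it fell. The part of base composition in the change was not tested. The share of all reads that fell in a member differed little between EpiLC and naive control libraries, with a median log2 ratio of -0.0048 and an SD of 0.118 over members.

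**Figure D5:**
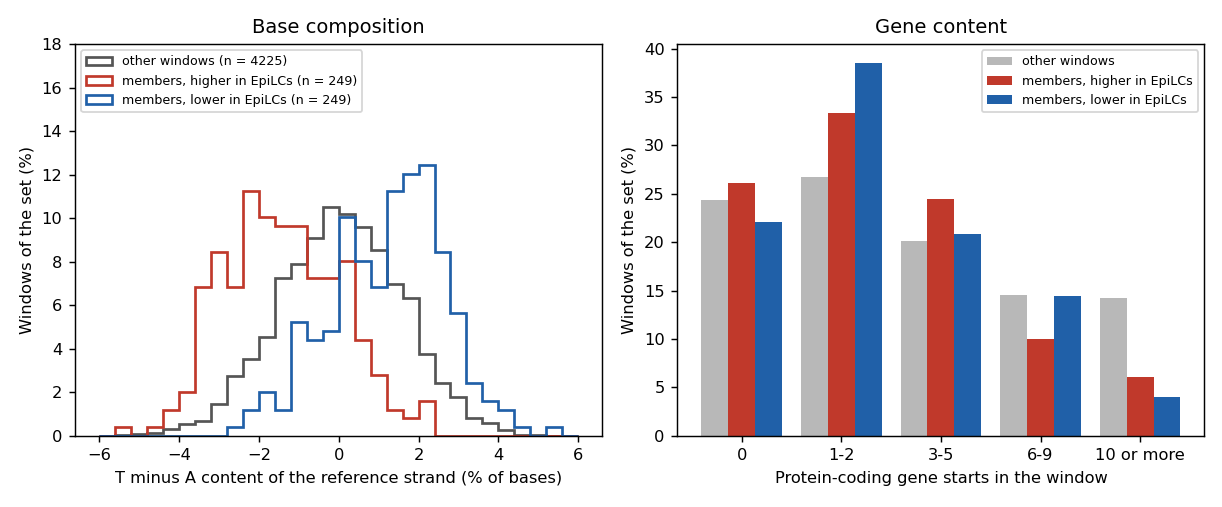
Left, T minus A content of the reference strand in percent of bases, as a percentage of the windows of each set, with members higher in EpiLCs to the left (median -1.51%) and those lower to the right (median 1.40%) of the other windows. Right, percentage of the windows of each set by number of protein-coding gene starts, with fewer members than other windows at 10 or more starts.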

How the data were processed

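OK-seq of 12 samples (6 conditions, 2 replicates each) was used. Per the submitters' processing notes, reads passed through FastQC, Trim Galore, Bowtie2 and Picard, whose versions are not given in the sources used here, and were placed on mm10. The authors deposited 1 file per condition with the signal, a read density in reads per bp, of the Watson and Crick strands in 1 kb bins, summed over replicates and not scaled to library size. Every value was a whole multiple of 0.001, so values were multiplied by 1000 to give reads. Positions were read as bin ends. With that reading the 66648 kilobases of the reference that hold N only had 0 reads, and as bin starts they would have 2990.

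Autosomal windows of 500 kb were used. In all, 122 bins above 10 times the median of non-zero bins in any library were left out, with 0.265% of reads. Reads of the dKO and dCD libraries were summed by state for selection, with at least 500 reads in each sum. Changes in the control carry Newcombe 95% intervals from Wilson intervals, which cover counting error only, since PCR copies of a molecule cannot be recognised. For the amplitude, binomial variance was taken from the variance over windows before the square root. Amplitude matching scaled each naive library's deviation from its median. Genes are the protein-coding genes of GENCODE M21, and base content is that of GRCm38. The windows named singly were the 6 members of each sign with the largest mutant change, at least 1 Mb apart, the members that hold the start of a listed gene, and the 3 windows nearest the threshold on either side. Other windows named were picked after their values were seen. The members and lists were chosen with earlier results of these data known. Interval coverage and recovery of planted changes were tested on simulated data. Python 3.11.15 with numpy 2.4.6, pandas 2.3.3, scipy 1.17.1 and matplotlib 3.10.9 was used.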

Additional observations from a re-analysis of the deposited data

How the results depend on the processing

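In all 19 alternatives the median change, measured in the control or, for windows chosen in the control, in the summed mutants, kept the direction of the libraries that chose the windows. It ranged from 2.77 to 5.70 points, and 84.6% to 97.0% of the windows kept that direction, against 61.8% to 70.8% of all windows tested in the same alternatives. Of 98 values recomputed, 45 did not move beyond their limits and the others did. For shares and medians these limits were 95% intervals over member windows, which are not independent. Only the median change could be called reversed, and in no alternative was it. Thresholds of 4 and 8 points gave 1320 and 152 members, of which 87.4% and 94.7% had the same sign in the control, 21.6% and 48.7% passed 6 points there and 45% and 69.7% had an interval without 0, with medians of 3.39 and 5.70 points. Of all windows at 500 kb, 9.68% passed 6 points and 25.1% had an interval without 0, both in the mutant direction. The latter share was not computed for the other alternatives. Windows of 250 kb gave 1881 members, 87.9% with the same sign, 38.9% past 6 points where 19.02% of all such windows passed (30.7% and 9.68% at 500 kb), 45.1% with such an interval and a median of 4.84. Windows of 1 Mb gave 67, 97.0% with the same sign and 68.7% with such an interval. With all libraries thinned to the smallest, which removes the depth difference between states, 85.2% had the same sign and 37.7% such an interval. Amplitude matching gave 117 windows, 94.0%, 40.2%, 69.2% and 5.32 points in the same order. Taking off the part of Crick percentage fitted on T minus A content gave 268, 86.9%, 25%, 46.6% and 3.81. Selection in dCD cells alone gave 985, 86.9%, 21.1%, 43.9% and 3.31. Over all windows, 4.36% passed 6 points with amplitude matching, 5.55% after the T minus A correction and 9.26% with selection in dCD cells. Windows chosen in the control and measured in the summed mutants had an interval without 0 in 70.7% and a median of 4.63.

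Chosen after seeing the data were 5 alternatives. Amplitude matching after the T minus A correction gave 103 windows, 94.2%, 36.9%, 68.9% and 5.20. Amplitude-matched selection in the control gave 215 windows, 21.4% past 6 points in the summed mutants, 64.7% with an interval without 0 and a median of 3.46. In dKO cells it gave 112 windows and 25.9% past 6 points, and in dCD cells 285 windows, 84.6%, 19.3%, 44.6% and 2.77. Of all windows in these settings, in the order given, 4.38%, 2.30%, 3.82% and 3.95% passed 6 points. The cause of these shifts was not tested.

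No paired analysis was possible because the replicates are summed in the deposited files. No replicate was left out for the same reason. The median of 2 gene starts held with genes counted by overlap, with amplitude matching and at 8 points. The interval of a member's control change reached a median of 3.84 points to either side, which is the limit for single windows.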
